A study of Mus musculus with 7 samples.

Results

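The expression of 10 germline genes, commonly cited as targets of DNA methylation, was followed through the deposited counts: Sycp1, Sycp3, Hormad1, Stag3, Dazl, Ddx4, Mael, Tdrd1, Taf7l and Tex19.1. They were taken by symbol from the count table, where all 10 were found among 43629 genes and all 10 passed the filter on low counts that left 18426 genes for testing. Ago2-knockout mouse embryonic stem (ES) cells taken through differentiation to extra-embryonic endoderm (KO XEN) gave 2 libraries, one of each knockout line, C4 and 5-3. The same protocol on wild-type E14 cells (WT XEN) gave libraries A and B. From undifferentiated Ago2-knockout cells (KO ESC) there were 3 libraries, labelled C4, 5-3_1 and 5-3_2. Every group derives from E14 cells of a 129/Ola background. The differentiated cells had spent 5 days in RPMI medium with serum, 10 ng/mL activin A and 0.1 µM all-trans retinoic acid, whereas the ES cells were kept in serum and LIF. Undifferentiated wild-type cells are not analysed here, so WT XEN and KO ESC differ in both genotype and differentiation.

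In most somatic cells germline genes are held silent by methylation of CpG-rich promoters, set by the DNMT3 enzymes and copied at replication by DNMT1 with UHRF1. In ES cells a further layer is the repressor complex PRC1.6, which reaches germline promoters through the E-box of MGA and MAX and the E2F site of E2F6. ES cells transcribe part of this set at low to moderate levels, while meiosis itself is not under way. Methylation was not measured in these libraries, so whether any of the genes was methylated cannot be read from them. The lowest count of any of the 10 genes was 48 in a KO ESC library and 16 in a WT XEN library, so none was at 0 there. They are therefore called germline genes below.

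Total counts were 13941826 in KO XEN C4 and 33389566 in KO XEN 5-3. WT XEN had 36427340 and 38595537, and KO ESC between 39998808 and 48650113. Levels are given as CPM, counts scaled by the TMM library size, and log2 fold changes as estimate ± SE from a fit over all 7 libraries, with p-values adjusted over all genes tested. A gene was called where the adjusted p was below 0.05. Ago2 itself stood at 122 CPM in KO XEN C4 and 9.94 CPM in KO XEN 5-3, at 394 and 432 CPM in WT XEN, and at 94.4, 9.37 and 9.65 CPM in KO ESC C4, 5-3_1 and 5-3_2. Both C4 libraries held more Ago2 transcript than the 5-3 libraries of the same state, and results that change without C4 are given beside the gene. Which part of Ago2 was deleted is not in the labels. In bulk RNA fewer cells of a type and less RNA per cell cannot be told apart. Whether replicate libraries came from separate cultures is not in the labels, so the p-values measure the spread between libraries, which may be technical.

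The promoters of the germline genes were read from the RefSeq table for GRCm38.p6, as windows of 300 bases that run from 250 before to 50 after the annotated start. All 10 genes matched, among 32851 windows. The CpG count ranged from 15 in Sycp3 to 38 in Ddx4, against a median of 7 over all windows. Each gene had more CpGs than 65.4% to 95% of windows. The ratio of observed to expected CpG was 0.575 to 1.063, against a median of 0.384. Both strands were searched for the E-box CACGTG and for TCCCGC, the core of the E2F site. The E-box letters occurred in 8 of the 10 windows and in 7.15% of all windows, the E2F letters in 7 and in 19.98%, and both together in 6 and in 1.99%. Both motifs contain CG, and the windows compared were not matched for CpG count, so the shares do not separate motif from CpG content. Such matches are a description of the letters and not of bound factors.

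The upstream parts of 5 windows are shown here as examples. Hormad1, Sycp3 and Dazl were all called lower in KO XEN than in both other groups, and of these Dazl holds neither motif. Taf7l was higher in WT XEN than in both other groups, and Mael was called in no comparison. Each upstream part runs 5′ to 3′ along the gene and ends at the base before the start. Capitals mark CACGTG, and TCCCGC or its complement GCGGGA. The Hormad1 window is chr3:95559427-95559676 on the plus strand, with E-box letters that begin at -57 and -20 from the start and E2F letters at -95. That of Sycp3 is chr10:88459337-88459586 on the plus strand, with E-boxes at -64 and -43 and the E2F letters at -147. The Dazl window is chr17:50293621-50293870 on the minus strand. Taf7l is read from chrX:134476491-134476740 on the minus strand, with an E-box at -49. Mael is read from chr1:166238745-166238994 on the minus strand, with an E-box at -223 and E2F letters at -143.
Hormad1: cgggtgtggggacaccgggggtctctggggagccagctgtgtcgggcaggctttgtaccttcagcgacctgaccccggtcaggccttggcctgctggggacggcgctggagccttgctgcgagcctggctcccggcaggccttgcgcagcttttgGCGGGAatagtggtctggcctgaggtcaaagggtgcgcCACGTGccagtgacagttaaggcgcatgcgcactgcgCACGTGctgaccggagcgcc
Sycp3: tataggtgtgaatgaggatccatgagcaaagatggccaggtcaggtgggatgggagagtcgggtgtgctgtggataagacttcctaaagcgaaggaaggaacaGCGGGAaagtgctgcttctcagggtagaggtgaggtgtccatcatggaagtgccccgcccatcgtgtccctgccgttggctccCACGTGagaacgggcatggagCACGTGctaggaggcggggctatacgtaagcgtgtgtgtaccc
Dazl: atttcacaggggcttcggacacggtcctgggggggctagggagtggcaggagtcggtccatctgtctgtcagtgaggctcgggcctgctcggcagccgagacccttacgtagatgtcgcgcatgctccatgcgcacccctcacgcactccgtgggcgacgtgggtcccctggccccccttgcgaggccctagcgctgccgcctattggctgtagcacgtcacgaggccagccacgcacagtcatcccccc
Taf7l: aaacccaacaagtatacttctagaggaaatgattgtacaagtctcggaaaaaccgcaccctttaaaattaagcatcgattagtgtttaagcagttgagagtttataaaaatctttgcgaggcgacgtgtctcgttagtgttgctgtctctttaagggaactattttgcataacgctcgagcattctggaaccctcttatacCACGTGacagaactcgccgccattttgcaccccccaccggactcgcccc
Mael: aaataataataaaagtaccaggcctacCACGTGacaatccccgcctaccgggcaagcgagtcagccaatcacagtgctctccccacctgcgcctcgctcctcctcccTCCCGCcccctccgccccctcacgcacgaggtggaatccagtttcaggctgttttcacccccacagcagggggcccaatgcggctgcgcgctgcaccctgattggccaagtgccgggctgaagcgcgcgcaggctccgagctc

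Summed over the 10 genes, germline transcripts were lowest in KO XEN. They reached 104 to 120 CPM in KO XEN, 183 to 203 CPM in WT XEN and 238 to 270 CPM in KO ESC. The sum over 43 other listed germline genes, given below, was instead lowest in WT XEN. That order rested on Rec8, which held 450 and 695 CPM of 703 and 957 CPM in KO XEN C4 and 5-3. With Rec8 set aside, that sum too was lowest in KO XEN. In KO XEN against WT XEN, 6 of the 10 genes were called lower, namely Dazl, Ddx4, Sycp1, Sycp3, Hormad1 and Taf7l, and 0 higher by edgeR's quasi-likelihood test. Of all genes tested 23.9% were called lower there and 22.3% higher. DESeq2 also called 0 members higher, and at an unadjusted p below 0.05 edgeR counted 0. The median log2 fold change of the 10 was -2.10, against 0.00 over all genes tested. Relative to KO ESC, KO XEN had 6 called lower, Dazl, Sycp1, Sycp3, Stag3, Tex19.1 and Hormad1, where 34.3% of all genes were, and 0 higher, where 34.8% were. Here too DESeq2 called 0 higher, and edgeR had 0 higher at an unadjusted p below 0.05. Their median log2 fold change was -1.07, against -0.08 over all genes. In WT XEN against KO ESC 4 were lower, where 30.3% of all genes were, and 2 higher, where 32.2% were, with a median of -0.64 against -0.03. The comparisons share libraries, so the lists are not separate evidence: 4 genes (Dazl, Sycp1, Sycp3 and Hormad1) were called lower in KO XEN against both other groups, and Mael was called in none.

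**Figure D1:**
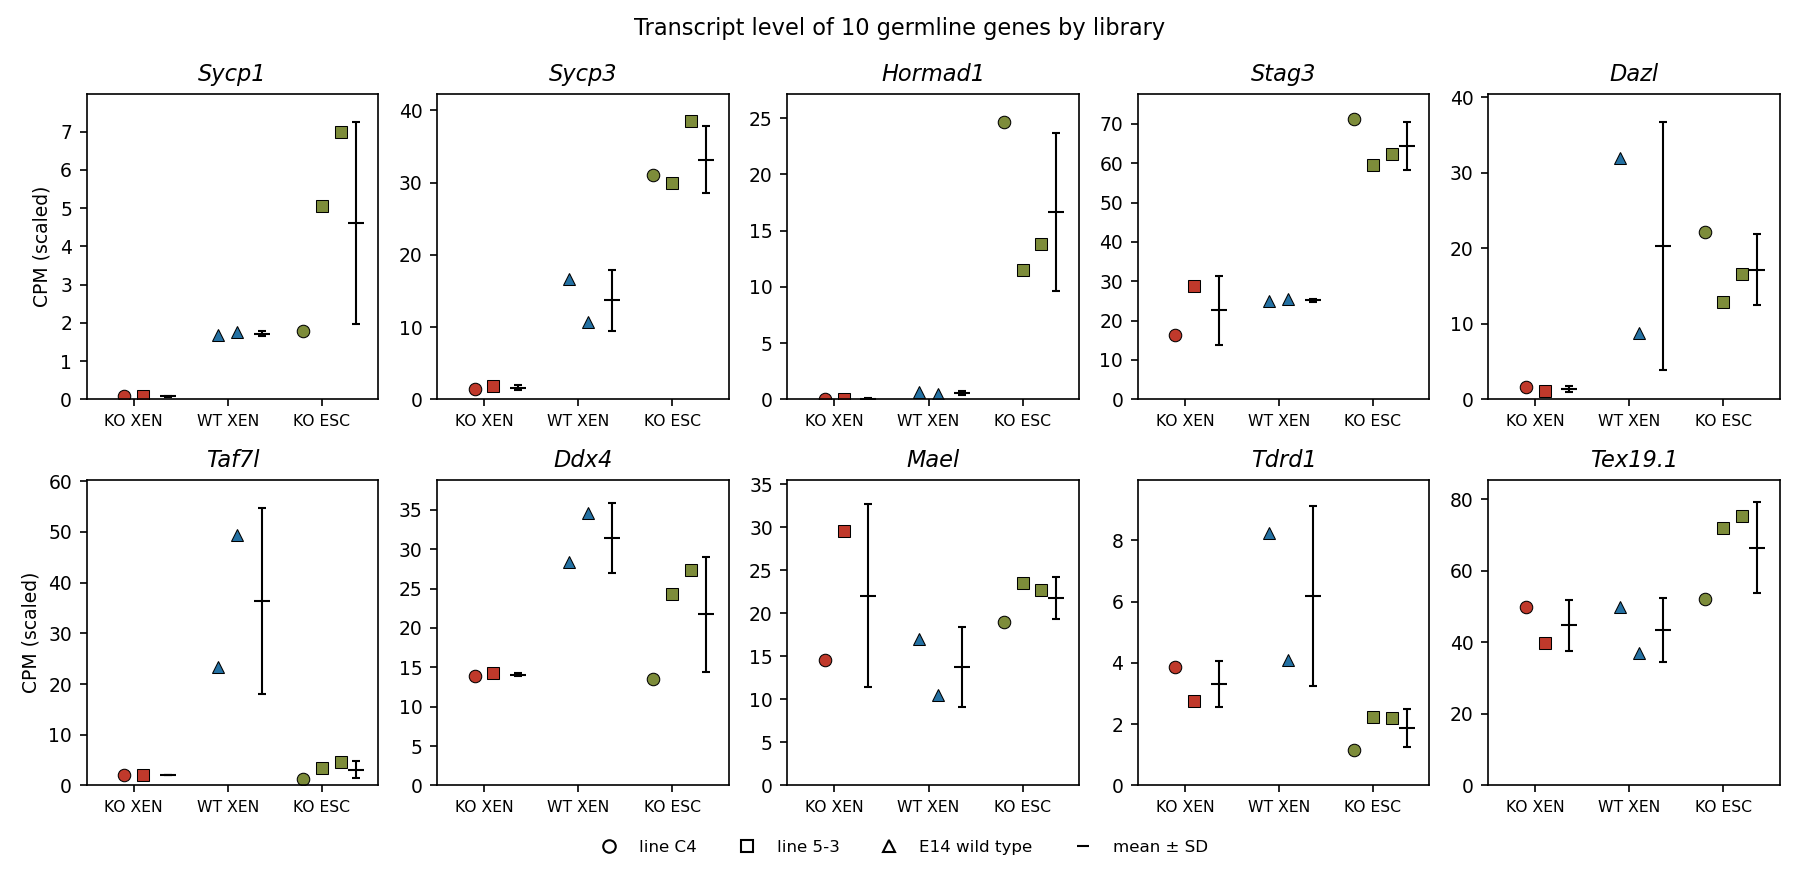
Level of each germline gene in CPM (linear axis from 0, one panel per gene) in every library of KO XEN, WT XEN and KO ESC, with bars for mean ± SD; the marker shape gives the line. Hormad1 is near 0 in both KO XEN libraries, and Taf7l reaches 23.4 and 49.4 CPM in WT XEN alone.

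Of the 10 genes, 4 build the meiotic chromosome axis and the synaptonemal complex, the protein zipper between paired chromosomes. Hormad1, a HORMA-domain protein of the unsynapsed axis (ENSMUSG00000028109, mm10 chr3:95559677-95587671, plus strand), had 0 and 2 counts in KO XEN C4 and 5-3. It had 25 and 16 counts in WT XEN, which are 0.685 and 0.442 CPM. In KO ESC its level was 24.7, 11.5 and 13.8 CPM in C4, 5-3_1 and 5-3_2. The groups did not overlap, and the order was KO ESC above WT XEN above KO XEN. Over the pooled counts KO XEN was 13.1-fold lower than WT XEN (exact 95% interval 3.39 to 111, counting error only), with an adjusted p of 0.0110. KO XEN was 381-fold lower than KO ESC (105 to 3150; adjusted p = 2.81e-05). In KO XEN C4 a count of 0 allows up to 0.218 CPM, so for that library the gene was not detectable at this depth. WT XEN was lower than KO ESC by a log2 fold change of -4.87 ± 0.52 (adjusted p = 0.000123).

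Sycp1, the transverse filament of the synaptonemal complex (ENSMUSG00000027855, chr3:102818499-102936100, minus strand), was at 0.0726 and 0.0923 CPM in KO XEN, which are 1 and 3 counts. It was at 1.67 and 1.77 CPM in WT XEN, and at 1.78, 5.07 and 7.005 CPM in KO ESC C4, 5-3_1 and 5-3_2. KO XEN lay below both other groups with no overlap. Its log2 fold change was -4.27 ± 0.84 in KO XEN against WT XEN (adjusted p = 0.00464) and -5.70 ± 0.82 against KO ESC (adjusted p = 0.000419). In WT XEN against KO ESC it was -1.42 ± 0.56, which missed the threshold (adjusted p = 0.0534). This last comparison passed with line as a block (-0.95, adjusted p = 0.0461), with DESeq2 (-1.45, 0.0301), without KO ESC C4 (-1.83, 0.00274) and without both C4 libraries (-1.81, 0.00481).

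Sycp3, a lateral-element protein of the same complex (ENSMUSG00000020059, chr10:88459569-88473236, plus strand), was at 1.38 and 1.88 CPM in KO XEN, at 16.7 and 10.7 CPM in WT XEN, and at 31.0, 29.9 and 38.4 CPM in KO ESC. The 3 groups were apart in the same order as for Hormad1. KO XEN fell by 3.04 ± 0.31 on the log2 scale against WT XEN (adjusted p = 0.000339) and by 4.31 ± 0.32 against KO ESC (adjusted p = 1.23e-05). WT XEN against KO ESC gave -1.28 ± 0.26 (adjusted p = 0.0032). In the annotation 660 of the 1264 exonic bases of Sycp3 overlap Chpt1, a choline phosphotransferase gene on the opposite strand. Libraries keep strand per the labels, but whether the counting used it is not given in the sources used here, so reads may be shared between the genes. Chpt1 stood at 9.58 and 12.2 CPM in KO XEN, at 62.4 and 36.3 CPM in WT XEN, and at 8.91 to 11.7 CPM in KO ESC. It was higher in WT XEN than in KO ESC (2.22 ± 0.26, adjusted p = 0.000213), the opposite direction to Sycp3, and KO XEN was below WT XEN (-2.18 ± 0.30, adjusted p = 0.00105).

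Stag3, the meiosis-specific cohesin subunit (ENSMUSG00000036928, chr5:138280240-138312393, plus strand), was at 16.3 and 28.8 CPM in KO XEN C4 and 5-3, at 24.9 and 25.5 CPM in WT XEN, and at 71.1, 59.6 and 62.4 CPM in KO ESC. The XEN groups overlapped, and both lay below every KO ESC library. KO XEN against KO ESC gave -1.50 ± 0.25 (adjusted p = 0.000869), and WT XEN against KO ESC -1.35 ± 0.24 (adjusted p = 0.0018). Between KO XEN and WT XEN the difference was -0.15 ± 0.26 (adjusted p = 0.665), and its sign turned to 0.193 without KO XEN C4.

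A further 2 members bind or remodel germ cell RNA. Dazl, an RNA-binding translation regulator of germ cells (ENSMUSG00000010592, chr17:50279395-50293636, minus strand), was at 1.597 and 1.11 CPM in KO XEN, at 32.0 and 8.74 CPM in WT XEN, and at 22.2, 12.8 and 16.5 CPM in KO ESC. Both KO XEN libraries lay below every other library, and WT XEN spanned the range of KO ESC. Its log2 fold change was -3.95 ± 0.65 against WT XEN (adjusted p = 0.00207) and -3.70 ± 0.62 against KO ESC (adjusted p = 0.000984). The difference from WT XEN was -2.80 without WT XEN A (adjusted p = 0.00225) and -4.61 without WT XEN B (adjusted p = 0.000969). WT XEN against KO ESC gave 0.24 ± 0.49 (adjusted p = 0.683), which turned to -0.94 without WT XEN A (adjusted p = 0.0801). Ddx4, the Vasa RNA helicase (ENSMUSG00000021758, chr13:112598333-112652475, minus strand), was at 13.9 and 14.2 CPM in KO XEN, at 28.3 and 34.6 CPM in WT XEN, and at 13.5, 24.4 and 27.3 CPM in KO ESC C4, 5-3_1 and 5-3_2. KO XEN was below WT XEN (-1.16 ± 0.33, adjusted p = 0.0212), and its libraries overlapped KO ESC, where C4 was the lowest of all 7. The call against WT XEN was lost without WT XEN B (adjusted p = 0.0995), KO XEN C4 (0.0924) or KO XEN 5-3 (0.0807). Against KO ESC the difference was -0.63 ± 0.30 (adjusted p = 0.0958), and it was called without both C4 libraries (-0.86, adjusted p = 0.0207) or without KO ESC C4 (-0.97, 0.00248). WT XEN against KO ESC gave 0.53 ± 0.29 (adjusted p = 0.140), called with line as a block (0.68, adjusted p = 0.0430).

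Another 2 serve the piRNA pathway, which silences transposons in germ cells. Mael, the nuage protein Maelstrom (ENSMUSG00000040629, chr1:166201201-166238747, minus strand), was at 14.5 and 29.5 CPM in KO XEN C4 and 5-3, at 17.0 and 10.5 CPM in WT XEN, and at 18.9, 23.6 and 22.7 CPM in KO ESC. The KO XEN libraries were the furthest apart and overlapped both other groups. Its log2 fold change was 0.69 ± 0.36 in KO XEN against WT XEN (adjusted p = 0.159), 0.03 ± 0.33 in KO XEN against KO ESC (adjusted p = 0.947) and -0.66 ± 0.34 in WT XEN against KO ESC (adjusted p = 0.121). Without KO XEN C4 it was called higher than in WT XEN (1.10, adjusted p = 0.0436), and without KO XEN 5-3 the difference was -0.01. Tdrd1, a Tudor-domain scaffold of the piRNA machinery (ENSMUSG00000025081, chr19:56826209-56870012, plus strand), was at 3.85 and 2.77 CPM in KO XEN, at 8.25 and 4.09 CPM in WT XEN, and at 1.15, 2.23 and 2.20 CPM in KO ESC. Here the KO ESC libraries were the lowest, with no overlap with either XEN group. WT XEN exceeded KO ESC by 1.72 ± 0.43 (adjusted p = 0.00858), a call lost without WT XEN A (1.17, adjusted p = 0.0775). KO XEN differed from WT XEN by -0.91 ± 0.48 (adjusted p = 0.160) and from KO ESC by 0.82 ± 0.44 (adjusted p = 0.131), neither past the threshold.

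The 2 remaining genes differed in course. Taf7l, a germ cell paralog of the TFIID subunit TAF7 (ENSMUSG00000009596, chrX:134460118-134476490, minus strand), was at 2.11 and 2.09 CPM in KO XEN, at 23.4 and 49.4 CPM in WT XEN, and at 1.27, 3.48 and 4.60 CPM in KO ESC. Both WT XEN libraries stood above all 5 others, while KO XEN lay within the range of KO ESC. WT XEN was higher than KO ESC by 3.54 ± 0.52 (adjusted p = 0.000614), and KO XEN was lower than WT XEN by -4.12 ± 0.64 (adjusted p = 0.0016). Without WT XEN B they were 2.91 (adjusted p = 0.0054) and -3.49 (adjusted p = 0.00948). KO XEN against KO ESC gave -0.58 ± 0.56 (adjusted p = 0.379). Tex19.1, a mammal-specific gene of germ cells, ES cells and placenta that takes part in transposon control (ENSMUSG00000039329, chr11:121146143-121148319, plus strand), was at 49.7 and 39.7 CPM in KO XEN, at 49.8 and 37.0 CPM in WT XEN, and at 52.0, 72.0 and 75.4 CPM in KO ESC. The XEN groups overlapped almost completely, with a difference of 0.04 ± 0.24 (adjusted p = 0.910) whose sign turned under several settings. Both were called lower than KO ESC, at -0.57 ± 0.22 for KO XEN (adjusted p = 0.0493) and -0.62 ± 0.22 for WT XEN (adjusted p = 0.0416). With line as a block neither call held (adjusted p = 0.0822 and 0.0626), and over all settings the adjusted p ran from 0.00790 to 0.207 for KO XEN and from 0.0104 to 0.234 for WT XEN. The KO XEN call was lost without KO ESC 5-3_1, KO ESC 5-3_2 or either KO XEN library, and the WT XEN call without any of these or WT XEN B. Without both C4 libraries KO XEN against KO ESC was -0.89 (adjusted p = 0.0220).

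**Figure D2:**
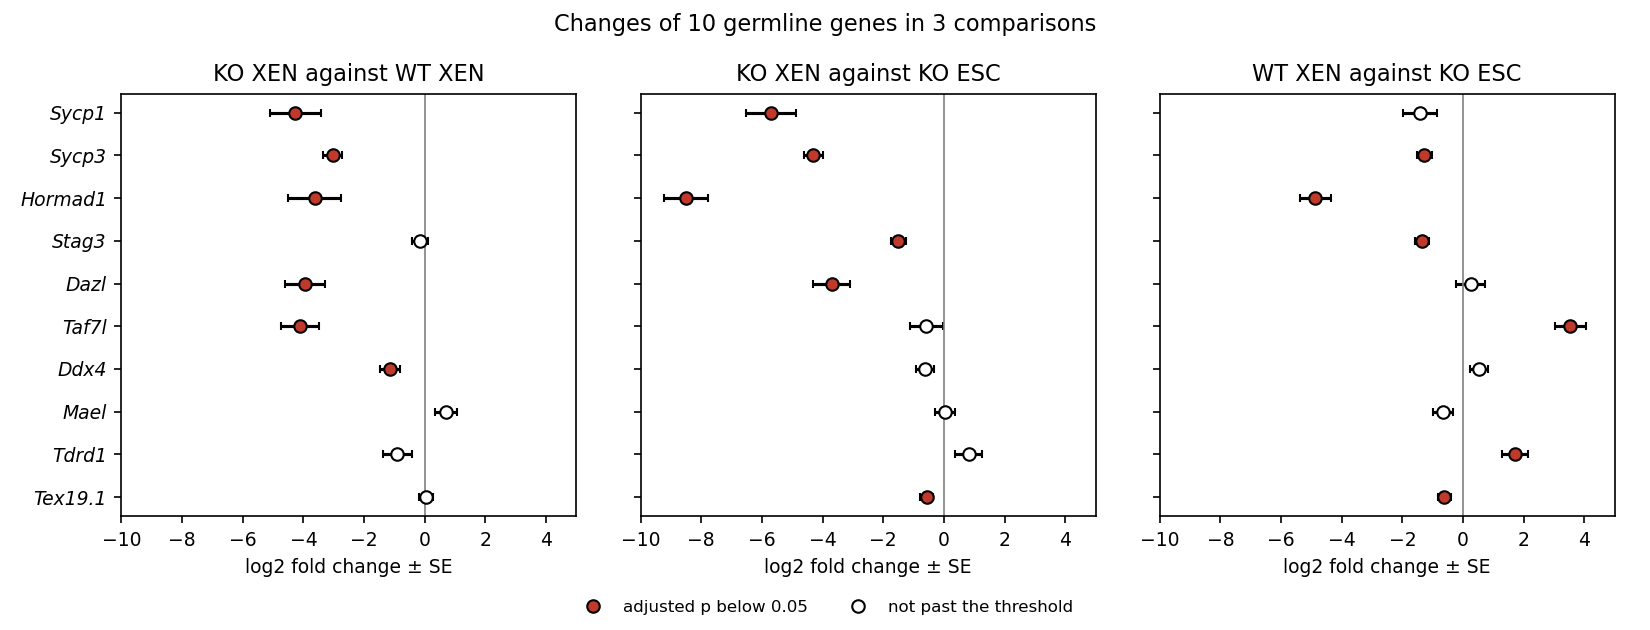
Log2 fold change ± SE of each germline gene in the 3 comparisons, with filled markers for genes called at an adjusted p below 0.05. Dazl, Sycp1, Sycp3 and Hormad1 lie to the left of 0 in KO XEN against WT XEN and against KO ESC, and Taf7l is higher in WT XEN than in KO ESC by 3.54. The fitted value of Hormad1 in KO XEN rests on 2 counts.

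Set per kilobase of exon, so that genes can be compared, Tex19.1 was the most abundant member in each group, with 23.9 CPM per kb in KO XEN, 23.2 CPM per kb in WT XEN and 35.5 CPM per kb in KO ESC. The lowest was Hormad1 in KO XEN (0.0178 CPM per kb) and in WT XEN (0.326), but Tdrd1 in KO ESC (0.342). Median levels were 1.11 CPM per kb in KO XEN, 6.64 CPM per kb in WT XEN and 8.41 CPM per kb in KO ESC. At least 1 CPM per kb was reached by 5 members in KO XEN, 8 members in WT XEN and 9 members in KO ESC. Counted by libraries alone, 7 members in KO XEN lay wholly below WT XEN and 0 wholly above, where 38.3% and 38.2% of all genes did. Against KO ESC, 6 lay below and 1 above, where 41.2% and 39.8% of all genes did. In WT XEN against KO ESC 6 lay below and 3 above, against 37.7% and 38.4% of all genes.

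The lines C4 and 5-3 were compared in the knockout cells. Of the 10 genes 0 were called as different between lines, where 14 of 18426 genes (0.0760%) were called by edgeR. At an unadjusted p below 0.05 the test gave 1 member and 1742 genes. That member was Sycp1, lower in C4 by -1.63 ± 0.45 (adjusted p = 0.333). A difference between lines in the change from KO ESC to KO XEN was called for 0 genes, with 1844 at an unadjusted p below 0.05; this test has 1 KO XEN library per line. The smallest adjusted p among the 10 was 0.375, for Stag3, which changed by -2.12 in C4 and -1.08 in 5-3 on the log2 scale.

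Of 43 other listed genes of meiosis, the piRNA pathway and spermatogenesis, 41 were tested. In KO XEN against WT XEN 17 were lower, 4 higher and 20 not called, with a median log2 fold change of -1.23. Of all genes tested 23.9% were lower and 22.3% higher. The lower calls of Cyct, Gtsf1, Hsf2bp, Slc25a31, Syce2, Terb1, Tex19.2 and Tktl2 were each lost in some settings with a library left out. Those of Gtsf1 and Terb1 were also lost with DESeq2 (adjusted p = 0.0810 and 0.0574). Sycp2, the partner of SYCP3 in the lateral element, fell by 4.54 ± 0.48 (adjusted p = 0.000358) to 0.436 and 0.462 CPM in KO XEN, against 7.10 and 14.02 CPM in WT XEN. Tdrd5, a Tudor-domain protein of the piRNA pathway, gave -2.68 ± 0.31 (adjusted p = 0.000495). Dpep3, a dipeptidase gene of the testis, had 0 counts in KO XEN, at least 24.2-fold lower than its level in WT XEN when 3 counts over both KO XEN libraries serve as the floor (adjusted p = 0.00128).

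The called genes that were higher in KO XEN than in WT XEN were Rec8, Sohlh2, Pnldc1 and Meioc. Rec8, the meiotic kleisin of cohesin, was at 450 and 695 CPM in KO XEN, at 66.1 and 30.5 CPM in WT XEN, and at 7.90, 9.15 and 10.9 CPM in KO ESC. Its libraries did not overlap between groups and ran in the reverse order to those of Sycp3 and Hormad1. Its log2 fold change was 3.57 ± 0.40 against WT XEN (adjusted p = 0.000435) and 5.94 ± 0.38 against KO ESC (adjusted p = 6.65e-06). Sohlh2, a transcription factor of early germ cell differentiation, was at 91.7 and 85.7 CPM in KO XEN, at 35.4 and 9.37 CPM in WT XEN, and at 34.6, 16.2 and 16.7 CPM in KO ESC (1.99 ± 0.60 against WT XEN, adjusted p = 0.0279; 1.98 ± 0.53 against KO ESC, adjusted p = 0.0101). Pnldc1, the piRNA-trimming exonuclease, gave 0.74 ± 0.24 (adjusted p = 0.0357) and Meioc, a meiosis regulator, 0.81 ± 0.28 (adjusted p = 0.0477). With line as a block the call of Meioc was lost (adjusted p = 0.0531). The calls of Sohlh2, Pnldc1 and Meioc against WT XEN were also lost without KO XEN 5-3 (adjusted p = 0.0841, 0.309 and 0.471) or without WT XEN B (0.0854, 0.176 and 0.231), that of Sohlh2 without KO XEN C4 (0.0875), and those of Pnldc1 and Meioc without WT XEN A or any KO ESC library. Summed, the listed genes reached 703 to 957 CPM in KO XEN, 307 to 430 CPM in WT XEN and 757 to 787 CPM in KO ESC. Rec8 alone made up most of the KO XEN sum, and without it both KO XEN libraries lay below every WT XEN and KO ESC library.

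Against KO ESC, KO XEN had 24 of the 41 lower, 2 higher and 15 not called, with a median of -2.38; of all genes 34.3% were lower and 34.8% higher. Hsf2bp, a meiotic recombination factor, was at 1.89 and 1.88 CPM in KO XEN and 92.4, 99.2 and 91.7 CPM in KO ESC (-5.65 ± 0.33, adjusted p = 4.90e-06). Rnf17, a Tudor-domain protein, gave -2.90 ± 0.22 (adjusted p = 1.32e-05), and Syce2, of the central element of the synaptonemal complex, -2.45 ± 0.19 (adjusted p = 1.79e-05). The lower calls of Boll, Syce1, Terb2, Tex11, Tex15 and Tuba3a were each lost in some settings with a library left out. Higher were Rec8 and Sohlh2. WT XEN had 17 lower than KO ESC, 12 higher and 12 not called, with a median of -1.13, where 30.3% of all genes were lower and 32.2% higher. The smallest adjusted p belonged to Hsf2bp (-4.48 ± 0.30, adjusted p = 1.58e-05), Tdrd5 (3.21 ± 0.27, 4.01e-05), Tex14, of germ cell bridges (-2.92 ± 0.29, 8.99e-05), and Piwil2, a PIWI protein (-2.51 ± 0.25, 9.69e-05). The genes higher in WT XEN were Tdrd5, Prdm9, Rec8, Sycp2, Terb1, Tktl2, Syce1, Dpep3, Slc25a31, Tex11, Brdt and Tex15, with log2 fold changes from 0.62 in Syce1 to 3.83 in Tktl2. The calls of Syce1, Dpep3, Slc25a31, Tex11, Brdt and Tex15 were each lost without at least 1 library. Of the 12, Prdm9, which places meiotic recombination hotspots, was at 6.90 and 8.52 CPM in WT XEN and 0.841 to 1.25 CPM in KO ESC. Among the lower genes, the calls of Terb2 and Tex101 were each lost without at least 1 library, and that of Tuba3a without both C4 libraries.

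**Figure D3:**
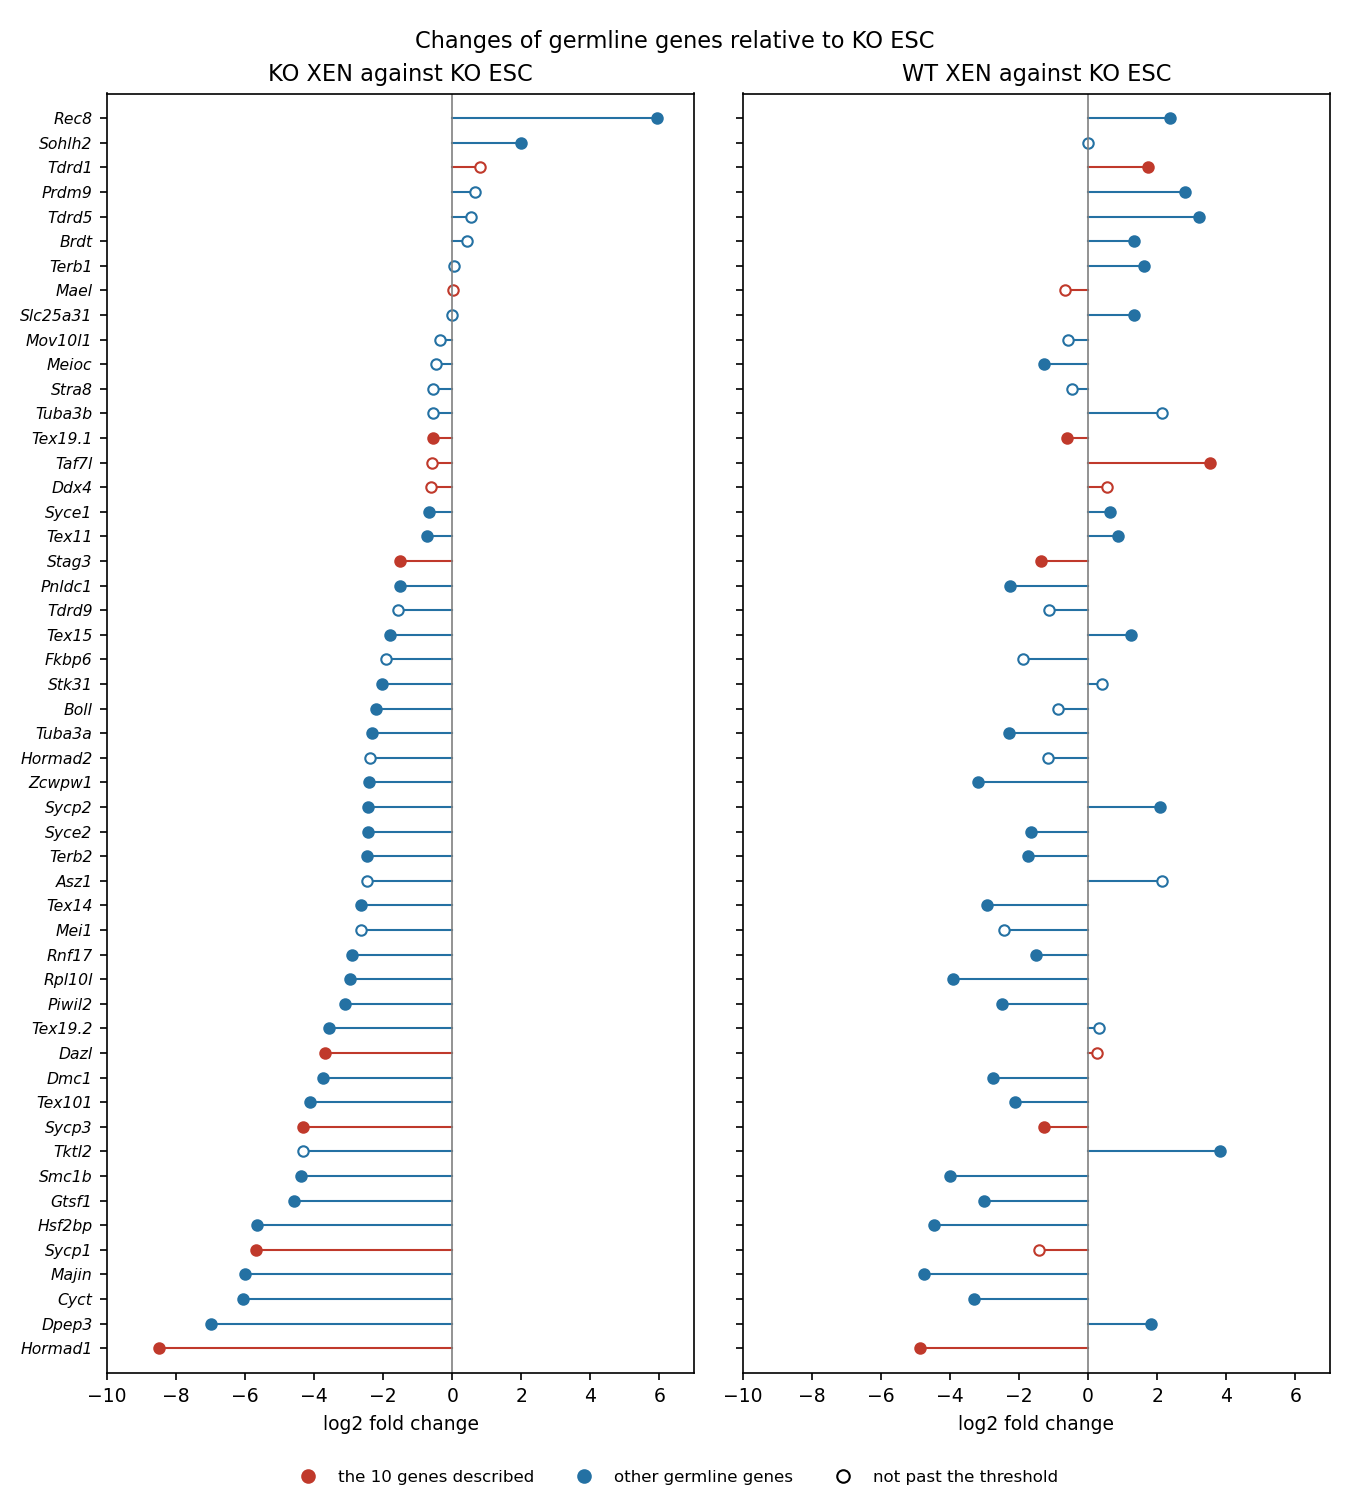
Log2 fold change of each tested gene of the germline list and of the 10 germline genes in KO XEN against KO ESC and in WT XEN against KO ESC, which share the KO ESC libraries. Filled points passed the threshold. Rec8 leads in KO XEN at 5.94, and Sycp2 is at -2.45 in KO XEN but at 2.09 in WT XEN. The fitted values of Dpep3, Tktl2, Majin, Asz1, Tex101 and Hormad1 in KO XEN rest on at most 2 counts.

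Genes that write or remove DNA methylation were also counted, since the germline genes are textbook targets of that system. Of 10 listed genes KO XEN had 5 lower than WT XEN, 2 higher and 3 not called, with a median log2 fold change of -0.96, where 23.9% of all genes were lower and 22.3% higher. Dnmt3l, the catalytically inactive partner of the de novo enzymes, was at 1.67 and 1.54 CPM in KO XEN, at 97.9 and 119 CPM in WT XEN, and at 382, 473 and 468 CPM in KO ESC. It differed by -6.09 ± 0.23 against WT XEN (adjusted p = 5.76e-05) and by -8.11 ± 0.24 against KO ESC (adjusted p = 9.34e-07). Dnmt3b, a de novo methyltransferase, was at 10.4 and 14.2 CPM in KO XEN and 262 and 129 CPM in WT XEN (-3.98 ± 0.37, adjusted p = 0.000239). Hells, a chromatin remodeller needed for methylation, was at 14.8 and 19.11 CPM in KO XEN, at 75.7 and 112 CPM in WT XEN, and at 665, 678 and 842 CPM in KO ESC. Its differences were -2.46 ± 0.25 against WT XEN (adjusted p = 0.000315) and -5.42 ± 0.28 against KO ESC (adjusted p = 2.86e-06).

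Higher in KO XEN were Tet3, a dioxygenase that oxidises methylcytosine (1.13 ± 0.19, adjusted p = 0.00228), and the de novo enzyme Dnmt3a (1.052 ± 0.24, adjusted p = 0.00933), whose call was lost without KO XEN 5-3 (0.67, adjusted p = 0.105) or WT XEN B (0.96, 0.0625). Tet3 was at 154 and 184 CPM in KO XEN, at 65.5 and 89.2 CPM in WT XEN, and at 15.1 to 16.6 CPM in KO ESC. Relative to KO ESC, 7 of the 10 were lower in KO XEN and 1, Tet3, higher (3.43 ± 0.18, adjusted p = 2.99e-06), with a median of -2.98; 34.3% of all genes were lower and 34.8% higher. Dnmt3a gave 0.24 ± 0.22 there (adjusted p = 0.346). Uhrf1, which guides DNMT1 to newly copied DNA, was among the lower genes (-2.94 ± 0.17, adjusted p = 4.88e-06). WT XEN had 8 lower than KO ESC and 1, again Tet3, higher (2.30 ± 0.17, adjusted p = 2.45e-05), with a median of -1.48, against 30.3% lower and 32.2% higher of all genes. Hells (-2.96 ± 0.24, adjusted p = 3.40e-05), Uhrf1 (-1.97 ± 0.16, 3.81e-05) and Dnmt3l (-2.02 ± 0.17, 3.95e-05) were among the lower genes there. So was Dnmt3b, whose call was lost with line as a block (-0.85) or without both C4 libraries (-0.72), any KO ESC library or WT XEN B. The call of Dnmt3a as lower there was lost without KO ESC 5-3_1 or either WT XEN library. The low summed transcripts of the 10 germline genes in KO XEN stood beside lower Dnmt3l, Dnmt3b, Hells, Uhrf1 and Tet2 transcripts than in both other groups. Tet3 transcripts were higher than in both. Tet2 gave -0.96 ± 0.27 against WT XEN (adjusted p = 0.0215), a call lost without WT XEN B or either KO XEN library. Against KO ESC it gave -3.02 ± 0.28 (adjusted p = 3.83e-05). Tet1 was lower than in KO ESC (-5.75 ± 0.68, adjusted p = 0.000139). Its difference from WT XEN (-1.11 ± 0.58, adjusted p = 0.155) passed only with line as a block or in some other settings. Their part in the germline result was not tested.

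**Figure D4:**
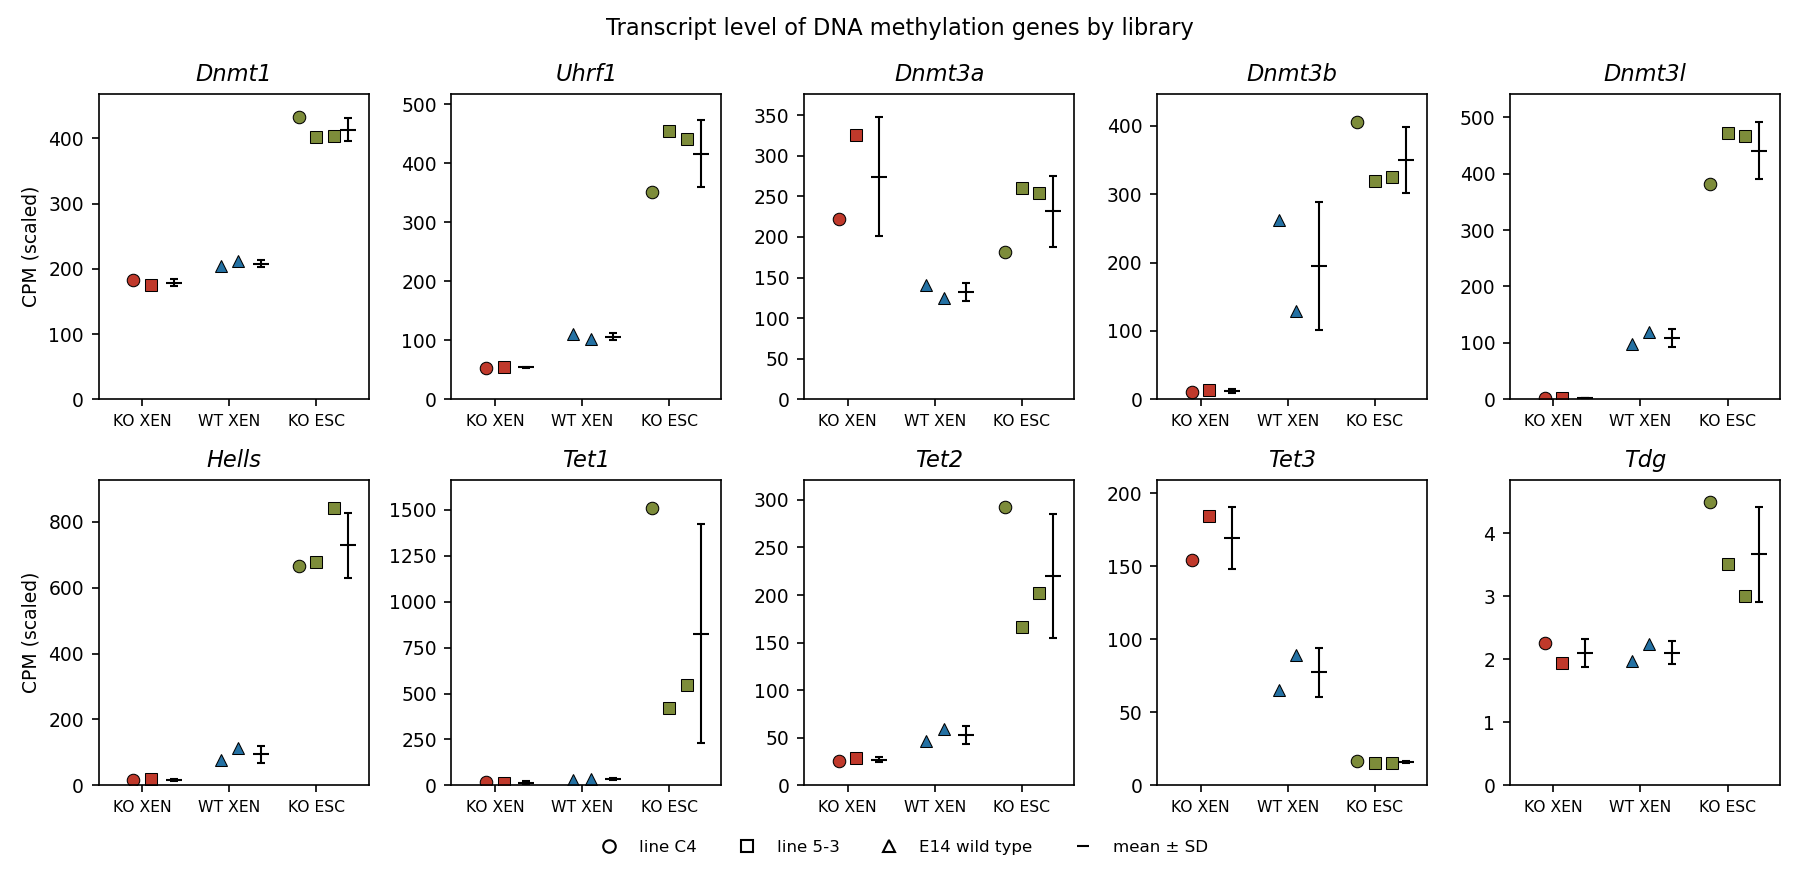
Level in CPM (linear axis from 0) of the 10 listed DNA methylation genes in every library of KO XEN, WT XEN and KO ESC, with mean ± SD and the line as marker shape. Dnmt3l is at 1.67 and 1.54 CPM in KO XEN and at 97.9 and 119 CPM in WT XEN, while Dnmt3a is higher in KO XEN than in WT XEN.

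Of 18 listed repressors of germline promoters, made up of PRC1.6 subunits and histone-modifying enzymes, KO XEN had 5 lower than WT XEN, 1 higher and 12 not called, with a median of 0.09, where 23.9% of all genes were lower and 22.3% higher. Pcgf6, the subunit that defines PRC1.6, was at 14.3 and 12.4 CPM in KO XEN, at 45.6 and 43.4 CPM in WT XEN, and at 80.2, 88.6 and 92.6 CPM in KO ESC (-1.74 ± 0.16 against WT XEN, adjusted p = 0.000266; -2.71 ± 0.16 against KO ESC, adjusted p = 5.21e-06). Mga, its DNA-binding subunit, was at 66.8 and 59.3 CPM in KO XEN and 184 and 311 CPM in WT XEN (-1.97 ± 0.37, adjusted p = 0.00359). Rnf2 (-0.86 ± 0.15, adjusted p = 0.00253) and Rybp (-0.88 ± 0.16, adjusted p = 0.00351), core PRC1 subunits, were lower too. Yaf2, the paralog of Rybp, was higher (1.10 ± 0.25, adjusted p = 0.00919), a call lost without KO XEN 5-3 (adjusted p = 0.0727) or WT XEN A (0.0578).

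Set against KO ESC, KO XEN had 11 of the 18 lower, 3 higher and 4 not called, with a median of -0.93, where 34.3% of all genes were lower and 34.8% higher. Wdr5 (-2.39 ± 0.14, adjusted p = 4.49e-06) and Rybp (-1.53 ± 0.15, 6.25e-05) were lower, and Yaf2 (3.22 ± 0.23, 1.20e-05), E2f6 (1.48 ± 0.15, 7.30e-05) and Ring1 (1.56 ± 0.22, 0.000358) higher. Set against KO ESC, WT XEN had 10 lower, 3 higher and 5 not called, with a median of -0.72, where 30.3% of all genes were lower and 32.2% higher. Wdr5 (-2.06 ± 0.14, adjusted p = 1.44e-05) and the PRC1.6 subunit L3mbtl2 (-2.14 ± 0.22, 0.000102) were lower there. Higher were Yaf2 (2.13 ± 0.23, 0.000131), E2f6 (1.21 ± 0.15, 0.000296) and Ring1 (1.404 ± 0.22, 0.000811).

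Transcripts of cell type markers differed between the groups along with the germline genes. Summed over 8 ES cell markers, levels were 23.4 to 41.8 CPM in KO XEN, 304 to 360 CPM in WT XEN and 4267 to 4341 CPM in KO ESC. For 8 primitive endoderm markers they were 551 to 949 CPM in KO XEN and 12339 to 20768 CPM in WT XEN. In KO ESC they were 127 to 173 CPM. Lama1 alone gave 9071 and 16467 CPM of the WT XEN sums. Relative to WT XEN, KO XEN had 7 of these 8 markers of the labelled XEN state called lower and 0 higher. Of all genes tested 23.9% were called lower in that comparison and 22.3% higher. Gata6 was not called (-1.05 ± 0.69, adjusted p = 0.245). It was at 96.6 and 169 CPM in KO XEN and 225 and 328 CPM in WT XEN. In all 8 both KO XEN libraries lay below both WT XEN libraries, as they did in 38.3% of all genes. The calls of Gata4 and Dab2 were each lost without at least 1 library. Relative to KO ESC, KO XEN had 6 higher and 0 lower, where 34.8% of all genes were higher and 34.3% lower. The same shares of called genes apply to the marker lists below. Sums over 7 fibroblast markers were 10224 to 12579 CPM in KO XEN and 779 to 1795 CPM in WT XEN. In KO ESC they were 30.5 to 31.7 CPM. Against WT XEN, KO XEN had 5 of the 7 higher and 1 lower. Among the higher ones, the call of Acta2 was lost without any single KO XEN or WT XEN library. Its log2 fold change was 2.70 without WT XEN B and 3.94 without WT XEN A. The lower one was Col1a2, at 28.5 and 36.03 CPM in KO XEN and 212 and 57.9 CPM in WT XEN (-2.06 ± 0.54, adjusted p = 0.0151), a call lost without WT XEN A (-0.91, adjusted p = 0.0810), KO XEN C4 (0.0922) or KO XEN 5-3 (0.0554). Thy1 was not called (-0.25 ± 0.76, adjusted p = 0.818). Against KO ESC it was lower in KO XEN (-2.53 ± 0.74, adjusted p = 0.0155), while 6 of the 7 were higher there. The 9 primordial germ cell markers summed to 19.7 to 43.6 CPM in KO XEN, 197 to 296 CPM in WT XEN and 181 to 246 CPM in KO ESC. Kit, which other cells also express, held 3.34 and 30.6 CPM of this in KO XEN, between 190 and 292 CPM in WT XEN and 100 to 123 CPM in KO ESC. Of the 7 tested, KO XEN had 2 higher and 2 lower than WT XEN, and 1 higher and 5 lower than KO ESC. Those higher than in WT XEN were Dnd1, at 12.5 and 10.4 CPM in KO XEN, at 2.38 and 1.797 CPM in WT XEN and at 6.46 to 6.68 CPM in KO ESC, and Nanos3, at 0.290 and 0.738 CPM in KO XEN, at 0.0548 and 0.0553 CPM in WT XEN and at 0.672 to 1.99 CPM in KO ESC. Dnd1 differed from WT XEN by 2.45 ± 0.28 (adjusted p = 0.000492) and from KO ESC by 0.81 ± 0.24 (adjusted p = 0.0168). The call against KO ESC was lost without KO ESC 5-3_1 (adjusted p = 0.0623), KO ESC 5-3_2 (0.0710), KO XEN C4 (0.0982) or KO XEN 5-3 (0.0528). Nanos3 differed from WT XEN by 3.23 ± 0.87 (adjusted p = 0.0175), a call lost without KO XEN 5-3 (0.183), WT XEN A (0.0804) or WT XEN B (0.0868). Of the others, Prdm14 and Dppa3 were at 0 in both KO XEN libraries, at most 1.18 CPM in WT XEN, and at 20.6 to 24.1 CPM and 3.10 to 22.6 CPM in KO ESC. For 9 markers of 2-cell-like cells the sums were 0.431 to 2.18 CPM in KO XEN and 6.53 to 14.3 CPM in WT XEN. In KO ESC they were 21.2 CPM in C4, above WT XEN, and 3.39 and 2.74 CPM in 5-3_1 and 5-3_2, below it. The part of these cell types in the germline differences was not tested.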

How the data were processed

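Poly(A) RNA of mouse E14 cells was sequenced in 7 libraries, prepared with a TruSeq kit and reverse-stranded per the labels. Per the submitters' processing notes, the tools were STAR 2.4.2a and featureCounts 1.4.5-p1 and the build was mm10. The deposited table holds raw counts, whole numbers with no normalization, for 43629 Ensembl gene IDs. The strand setting of the counting and the handling of reads that match several genes are not given in the sources used here, so paralogs (Tex19.1 and Tex19.2, Tuba3a and Tuba3b, Rpl10l) are uncertain. Symbols, positions and exon lengths came from GENCODE release M21 (GRCm38, the assembly of mm10), which gave a symbol to 42548 IDs through current or older symbols; 1 of 123 list entries, Gcna, had no match.

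Tests used R 4.3.3, edgeR 4.0.16, limma 3.58.1 and DESeq2 1.42.0. A single edgeR quasi-likelihood fit held 7 libraries and 3 groups, scaled by TMM. The filter was filterByExpr by group, after which 18426 genes were tested and 25203 were not. Residual degrees of freedom were 4 and prior ones 3.92 at the median. P-values were adjusted by Benjamini and Hochberg, with calls at 0.05. Line was tested in the same way, with wild-type cells set midway between C4 and 5-3. A group with 0 counts was set to 3 counts to give a bound for the fold, and a group with 1 to 3 counts has a count ratio and an exact 95% interval; both cover counting error only. The pipeline was tested on simulated counts. Alternatives were DESeq2, its size factors, no filter, fits of 2 groups, left-out libraries and line as a replicate block.

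The lines pair KO XEN with KO ESC, since C4 and 5-3 are cell lines named in the labels; the differences of C4 from 5-3 in ES cells and in XEN cells correlated with r of 0.0634 across genes. The members and lists were chosen with earlier results of these data known. All members are named, and of each list the 4 called genes with the smallest adjusted p and those against most called genes. With Dpep3 at its bound the medians of the germline list stayed at -1.23 and -2.38.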

Additional observations from a re-analysis of the deposited data

How the results depend on the processing

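Of the recomputed fold changes of the 10 genes 348 kept their direction and their side of the threshold, 17 lost and 9 gained the call, and 16 changed sign. Signs changed in genes that were not called. With a library left out, KO XEN against WT XEN ranged from -0.01 (without KO XEN 5-3) to 1.10 (without KO XEN C4) in Mael, from -0.71 to 0.19 in Stag3 and from -0.17 to 0.19 in Tex19.1. Without both C4 libraries Stag3 was at 0.19 and Tex19.1 at -0.13, and Tex19.1 was at -0.036 with no filter and -0.006 with only the 2 groups. KO XEN against KO ESC ranged from -0.66 to 0.45 in Mael, which was at -0.015 with no filter. WT XEN against KO ESC ranged from -0.94 (without WT XEN A) to 0.90 (without WT XEN B) in Dazl. The cause was not tested.

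Leaving out a library in turn gave 5743 to 9431 called genes, 0 to 1 members higher and 5 to 6 lower in KO XEN against WT XEN. It gave 10383 to 12863 genes, 0 higher and 5 to 7 lower in KO XEN against KO ESC, and 9616 to 11802 genes, 1 to 2 higher and 3 to 5 lower in WT XEN against KO ESC. The 1 member higher in KO XEN than in WT XEN without KO XEN C4, or without both C4 libraries, was Mael; without WT XEN A 1 member was higher than in KO ESC. Where an arm keeps 1 library, that library is assumed to vary like the other groups.

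With line as a replicate block the calls of Tex19.1 against KO ESC were lost (-0.53 in KO XEN, adjusted p = 0.0822; -0.58 in WT XEN, adjusted p = 0.0626), and those of Ddx4 (0.68) and Sycp1 (-0.95) were gained in WT XEN against KO ESC; no other call of the 10 genes changed with the block. Among named genes of the lists, the block ended the call of Meioc in KO XEN against WT XEN (0.78, adjusted p = 0.0531) and that of Dnmt3b in WT XEN against KO ESC (-0.85, 0.0505). DESeq2 size factors flipped no sign among the 10 genes, and the median of all genes in KO XEN against KO ESC was -0.10 with them and -0.08 with TMM. List counts stayed within 1.5 times under settings added after seeing the data. The smaller depth of KO XEN C4 gave it a higher floor, with 3 counts at 0.218 CPM, against 0.0923 CPM in KO XEN 5-3. Hormad1 lay below 3 counts in both, at 0 and 2 counts, so its low count was not confined to the shallower library.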
